A study of Mus musculus with 59 samples.

Results

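The respiratory chain is encoded by 2 genomes, and its genes were followed here from tumor to tumor in 59 mouse mammary tumors. The members were chosen by gene symbol: the protein-coding genes of the mitochondrial genome (mt-Nd, mt-Co, mt-Cytb and mt-Atp) and the nuclear subunits of complex I (Nduf), complex II (Sdh), complex III (Uqcr and Cyc1), complex IV (Cox4 to Cox8) and ATP synthase (Atp5). Of 55421 gene rows, 111 matched these symbols. The muscle and brown fat isoforms Cox8b and Cox7a1 were left out by the rule, and so were 12 pseudogenes, 8 by the suffix of their symbol and 4 (Cox6c2, Ndufa11b, Ndufb4c and Ndufs6b) by their annotation. The remaining 97 rows were 84 nuclear and 13 mitochondrial genes. A mean value of at least 1 was required for testing, which 85 of the 97 members reached: 78 nuclear and 7 mitochondrial. By complex these were 35 of 35 nuclear members of complex I, 4 of 4 of complex II, 9 of 9 of complex III, 13 of 18 of complex IV and 17 of 18 of ATP synthase. Despite their Nduf symbols, Ndufa4 and Ndufa4l2 were counted in complex IV throughout.

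The chain sits in the inner mitochondrial membrane. Complexes I and II pass electrons from NADH and succinate to ubiquinone, complex III hands them to cytochrome c, complex IV hands them to oxygen, and ATP synthase uses the proton gradient that complexes I, III and IV build. Mitochondrial DNA encodes core subunits of every complex except complex II, is transcribed by its own polymerase as long precursors from both strands, and depends on the nucleus for all the other subunits. Both sets of products must meet in 1 complex, and tissues of high oxidative capacity, such as muscle and brown fat, carry more of both.

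The tumors came from B6.FVB-Tg(MMTV-PyVT)634Mul/LellJ mice of genotype PyMT (+/-), in which the mouse mammary tumor virus promoter drives the polyomavirus middle T oncogene in mammary epithelium. All groups carried the transgene. Mice received vehicle (19 tumors), methylparaben (20) or propylparaben (20), parabens being preservatives of cosmetics and foods that bind estrogen receptors weakly, and the series asks whether long exposure to low levels changes tumor growth and spread. The labels name no dose, duration, age, animal or batch, so p-values measure the spread between tumors within a group, and tumors may share an animal. Each library came from a pulverized piece of tumor: in such bulk RNA, fewer cells of a type and less RNA per cell cannot be told apart.

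Depth was low and even. Between 1166502 and 2032789 reads fell on genes per library, and 1 read was worth 0.323 to 0.664 units of the deposited values. Between 11% and 15.8% of reads were not placed uniquely and 13.7% to 35.5% lay outside annotated features. All 12 luminal epithelial markers summed to between 1596 and 3107 in every tumor, T cell markers to between 2.05 and 37.7 and B cell markers to between 0 and 117. The epithelial markers of the labelled tissue were thus present in all 59 tumors. 1 library stood apart: methylparaben replicate 5. Its 14 skeletal muscle markers summed to 10064, against at most 1644 elsewhere, its 8 brown fat markers to 2236, against at most 158, and its 13 white fat markers to 18217. Ucp1, the uncoupling protein that defines brown fat, was at 746 in it, at most 46.2 in any other tumor and at 0 in 49 tumors. Its luminal markers summed to 1947 in deposited values, inside the range of the others, with 1 read worth 0.664, the most of all libraries. Results that rest on this library are given with and without it.

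Nuclear DNA holds copies of stretches of the mitochondrial genome, and a read that matches both places equally cannot be assigned to either. For each transcript the share of 50-base windows that occur unchanged in another annotated gene was counted. It was 100% for mt-Co2, 99.9% for mt-Co3, 99.5% for mt-Atp6, 98.8% for mt-Nd4l and 98.0% for mt-Nd3. It was 62.2% for mt-Nd4, 51.1% for mt-Co1, 8.19% for mt-Nd2 and 7.61% for mt-Nd5, and 0 for mt-Nd1, mt-Nd6, mt-Cytb and mt-Atp8. The first 60 bases of mt-Co2 (mitochondrial genome, 7013 to 7696) and of its copy Gm28661 on chromosome 1 are shown because a read from one could not be told from a read from the other; over 681 aligned bases 0 differed. The stretch of mt-Nd2 (3914 to 4951) with the copy Gm13339 on chromosome 2 is shown for contrast: 4 of its 60 bases, in capitals, differ, and 17 of 510 aligned bases differed. Sequences are those of the GENCODE M21 transcripts, on the transcribed strand.
mt-Co2, bases 1 to 60: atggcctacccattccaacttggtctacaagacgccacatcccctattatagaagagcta
Gm28661, same bases: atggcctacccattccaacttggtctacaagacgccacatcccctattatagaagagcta
mt-Nd2, bases 667 to 726: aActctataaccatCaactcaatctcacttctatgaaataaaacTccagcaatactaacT
Gm13339, same bases: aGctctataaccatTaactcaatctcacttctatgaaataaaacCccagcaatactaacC

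The promoters of nuclear members were searched for 3 motifs that are textbook regulators of respiratory genes: NRF1 (GCGCATGCG), GABPA (CCGGAAGT) and YY1 (AAGATGGC), each on both strands. RefSeq promoters of GRCm38.p6, running from 250 bases before to 50 after the gene start, matched 65 of the 83 nuclear symbols. NRF1 matched in 8 of these (12.3%), against 1.95% of all 27025 genes in the promoter table, GABPA in 5 (7.69%, against 4.31%) and YY1 in 9 (13.8%, against 3.19%). Some genes have more than 1 promoter in the table, and these shares count a gene once. The shares of all genes include genes not expressed in these tumors, and a comparison with expressed genes alone was not made. At least 1 motif was present in 21 of 65 members (32.3%), against 8.94% of all genes; counted per promoter it was in 30% of the members' promoters and in 7.96% of all. A match is a description of the letters and not a measured site. Promoters of 3 members are printed, with the match in capitals, 1 each of complexes IV, III and I, as examples of an NRF1 match on both strands and of a YY1 match. In Cox6a1 and Uqcrc1 the NRF1 motif is present on both strands and the 2 matches overlap.
Cox6a1, chr5:115348909-115349208 (minus strand, NRF1): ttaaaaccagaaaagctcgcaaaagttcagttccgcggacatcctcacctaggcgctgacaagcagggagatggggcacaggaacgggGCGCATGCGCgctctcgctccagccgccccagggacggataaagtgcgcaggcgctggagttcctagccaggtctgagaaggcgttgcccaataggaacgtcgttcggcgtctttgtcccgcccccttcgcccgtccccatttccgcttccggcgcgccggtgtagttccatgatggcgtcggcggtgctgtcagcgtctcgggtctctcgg
Uqcrc1, chr9:108936398-108936697 (plus strand, NRF1): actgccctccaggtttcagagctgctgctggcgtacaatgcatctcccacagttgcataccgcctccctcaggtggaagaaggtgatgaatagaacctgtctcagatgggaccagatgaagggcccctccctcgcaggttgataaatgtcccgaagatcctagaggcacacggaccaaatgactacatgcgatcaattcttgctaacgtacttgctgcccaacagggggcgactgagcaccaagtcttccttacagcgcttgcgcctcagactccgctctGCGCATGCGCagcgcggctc
Ndufb8, chr19:44555393-44555692 (minus strand, YY1): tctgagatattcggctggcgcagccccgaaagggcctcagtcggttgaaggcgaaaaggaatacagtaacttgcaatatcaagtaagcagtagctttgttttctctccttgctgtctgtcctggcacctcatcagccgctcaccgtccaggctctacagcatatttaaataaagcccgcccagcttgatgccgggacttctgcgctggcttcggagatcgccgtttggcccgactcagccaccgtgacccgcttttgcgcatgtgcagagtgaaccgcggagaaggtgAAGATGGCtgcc

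Transcripts of 7 of the 13 mitochondrial genes were measured. Values are the deposited ones, reads scaled per library, given as mean ± SD over 59 tumors and as lowest, median and highest. In every one of the 7 the highest tumor was methylparaben replicate 5, and the SD without that library is given last. mt-Nd1, a core subunit of complex I in the membrane arm, was the most abundant at 2682 ± 924 (1802, 2517 and 8319; SD 549). mt-Nd4, also of the membrane arm, was at 2065 ± 835 (1356, 1896 and 7624; SD 398). mt-Cytb, the heme-bearing subunit of complex III, was at 2008 ± 1003 (1314, 1843 and 8874; SD 426). These 3 had similar medians, and mt-Nd2, another membrane arm subunit, was close behind. mt-Nd2 was at 1721 ± 812 (1228, 1603 and 7462; SD 287). mt-Nd5 was at 569 ± 368 (372, 514 and 3212; SD 115). mt-Co1, the catalytic subunit of complex IV, was at 472 ± 306 (288, 405 and 2609; SD 117). Lowest was mt-Nd6, the single member encoded on the light strand, at 33.6 ± 14 (17.3, 31.2 and 122; SD 7.76).

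The other 6 mitochondrial genes were close to absent from the table. Over all 59 libraries together, mt-Co2 had 4 reads, mt-Co3 2, mt-Atp6 4, mt-Nd3 4, mt-Nd4l 1 and mt-Atp8 16, and each was at 0 in at least 48 libraries. mt-Co2 and mt-Co3 encode core subunits of complex IV and mt-Atp6 the proton channel of ATP synthase. The mitochondrial part of ATP synthase thus held almost no reads. All 5 genes with at least 98.0% shared windows were among these 6. The exception was mt-Atp8, with no shared window, whose annotated bases (7766 to 7969) overlap those of mt-Atp6 (7927 to 8607). The nuclear copies held few reads as well: Gm28661 had a mean of 1.78 and Gm28437, the copy of mt-Co3, a mean of 1.67, and the other copies of these genes were below 1. Why the reads are missing was not tested. The near-zero values of these 6 genes were therefore not read as levels of their transcripts.

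**Figure D1:**
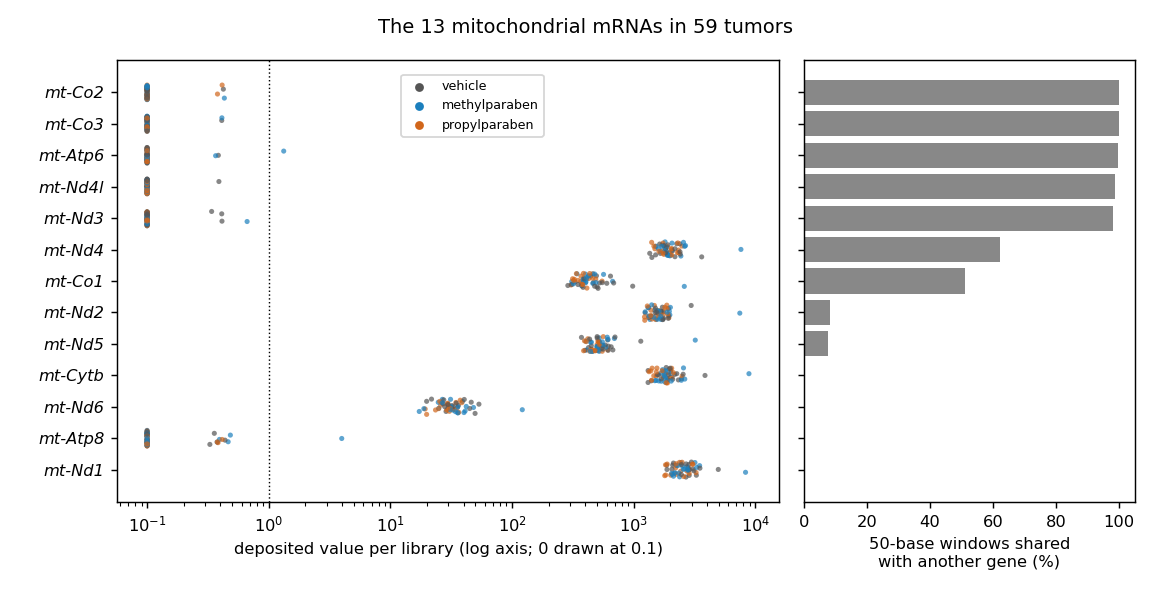
Deposited values of the 13 mitochondrial genes in 59 tumors (left; log axis, 1 point per library, 0 drawn at 0.1, dotted line at the test minimum of 1) and percent of each transcript's 50-base windows found in another gene (right). The 5 genes with at least 98.0% shared windows lie at or near 0, 7 genes lie between 17.3 and 8874, and the rightmost point of each of these 7 is methylparaben replicate 5.

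Levels were compared between genes per kilobase of the longest annotated coding transcript, principal ones first. That length was 4371 bases for Ndufb2 and 4715 for Atp5g1, so values per kb also depend on the annotation. The library kit was not given, so whether reads scale with transcript length is not known. The 7 measured mitochondrial mRNAs had a median of 1498 per kb, from 64.7 (mt-Nd6) to 2802 (mt-Nd1), with mt-Cytb at 1756, mt-Nd2 at 1658, mt-Nd4 at 1498, mt-Nd5 at 312 and mt-Co1 at 305. The 78 tested nuclear members had a median of 100.4 per kb. The reads counted on members of each genome were nevertheless similar shares of the reads on genes. Nuclear members took 0.987% to 2.31% (median 1.19%) and mitochondrial members 0.979% to 4.53% (median 1.31%). The mitochondrial share holds almost no reads of the genes that were not measured, so it is no estimate of that genome's full share. It may also miss reads of mt-Nd4 and mt-Co1, which shared 62.2% and 51.1% of their windows. Shared sequence limits nuclear values too: 37 of 84 nuclear members shared at least 1 window with another gene and 19 shared over 10%. Atp5g2, 1 of 3 genes for the c ring of ATP synthase, shared 87.4% of its windows and had a mean of only 3.30, and Atp5l shared 68.5% with a mean of 11.2. Such low values may hold only part of a gene's reads.

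Nuclear members ranged widely within each complex, and the medians of the complexes are a description with no test. Medians per kb were 164 for complex IV, 103 for ATP synthase, 84.7 for complex III, 53.5 for complex I and 44.9 for complex II. Ndufs5 of complex I was the lowest tested member at 3.43 per kb, with 31.1% shared windows, and Atp5g3, a second c ring gene, the highest at 998 per kb. The next highest were Uqcrh of complex III (423 per kb), Cox6c (419) and Cox7c (399) of complex IV. The 4 subunits of complex II, which also serves the citric acid cycle and has no mitochondrial gene, were at 62.6 (Sdha, the flavoprotein), 60.5 (Sdhb, the iron-sulfur subunit), 29.3 (Sdhc) and 24.5 per kb (Sdhd, with Sdhc the membrane anchor).

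In the 6 isoform pairs examined, the mean over all tumors of 1 gene was far above that of the other. Cox4i1 was at 164 per kb and Cox4i2, an isoform of lung and of hypoxic cells, at 0.36. Ndufa4 was at 120 per kb and the hypoxia-induced Ndufa4l2 at 0.54. The ubiquitous Cox6a1 was at 263 per kb and Cox6a2, the heart and skeletal muscle form, at 7.32; in methylparaben replicate 5 alone their values were 467 and 133. The remaining pairs set isoforms known from testis against their ubiquitous partners. Cox6b1 was at 246 per kb against 1.5 for Cox6b2, Cox7b at 155 against 0.04 for Cox7b2, and Cox8a at 159 against 0.03 for Cox8c. Of the minor forms in these pairs only Cox6a2 reached the test minimum; Cox4i2, Ndufa4l2, Cox6b2, Cox7b2 and Cox8c, with a second row for Atp5o at 0, were the 6 nuclear members not tested.

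Most members varied little between tumors. The SD of log2(value + 1) over 59 tumors had a median of 0.286 for nuclear and 0.414 for mitochondrial members, against 0.379 for all 14487 genes tested. Atp5g3 varied least (SD 0.17; 565, 712 and 1100), followed by Atp5f1 of the ATP synthase stalk (SD 0.20; 159, 199 and 335) and Cox7a2l, a factor that joins complexes III and IV (SD 0.21; 92.6, 125 and 213). Their highest tumors were less than 2 times the median tumor. Cox6a2 varied most (SD 1.46; 0, 1.02 and 133) and Ndufs5 ranked below Sdhd, with an SD of 0.50. Sdhd, on chromosome 9 (50596357 to 50603812, minus strand, GRCm38), ranked next to Cox6a2 with an SD of 0.98. Its values ran from 3.17 over a median of 27.9 to 62.0. No window of its transcript was shared with another gene. The range was as wide inside each group: 3.17, 27.7 and 62.0 in vehicle, 3.89, 27.9 and 55.8 in methylparaben, and 6.51, 31.0 and 56.3 in propylparaben tumors.

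Methylparaben replicate 5 set the top of most members' ranges. It had the highest value of all 59 tumors in 65 of the 78 tested nuclear members and in 7 of 7 mitochondrial members. Its values were a median of 2.5 times the median of the other tumors over the nuclear members: 2.90 times for complex IV, 2.87 for complex II, 2.83 for complex III, 2.45 for complex I and 2.10 for ATP synthase. It did not lead in 13 members, 8 of them of ATP synthase (Atp5e, Atp5g1, Atp5g2, Atp5g3, Atp5j, Atp5l, Atp5md and Atp5mpl), the others being Sdhd, Ndufb2, Ndufc2, Cox7c and Cox7a2l. The value of 1 read was highest in this library, at 0.664, so scaling is part of its folds and ranks above. As a share of gene reads, nuclear members took 2.31% in it, against a median of 1.19% over all tumors. Muscle and brown fat isoforms that were left out as members were high in the same library, Cox8b at 288 (at most 17.4 elsewhere) and Cox7a1 at 204 (at most 12.7 elsewhere). Both are also on the brown fat marker list, so these values are part of its sum given above and of the tissue scores. The part of muscle or fat in the values of methylparaben replicate 5 was not tested. Vehicle replicate 1 came next in both genomes. Its muscle score, the mean log2(value + 1) of the muscle markers, was low at 0.73, its Ucp1 value was 0.563 and its Cox8b value was 0, while 25.1% of its reads lay outside features.

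**Figure D2:**
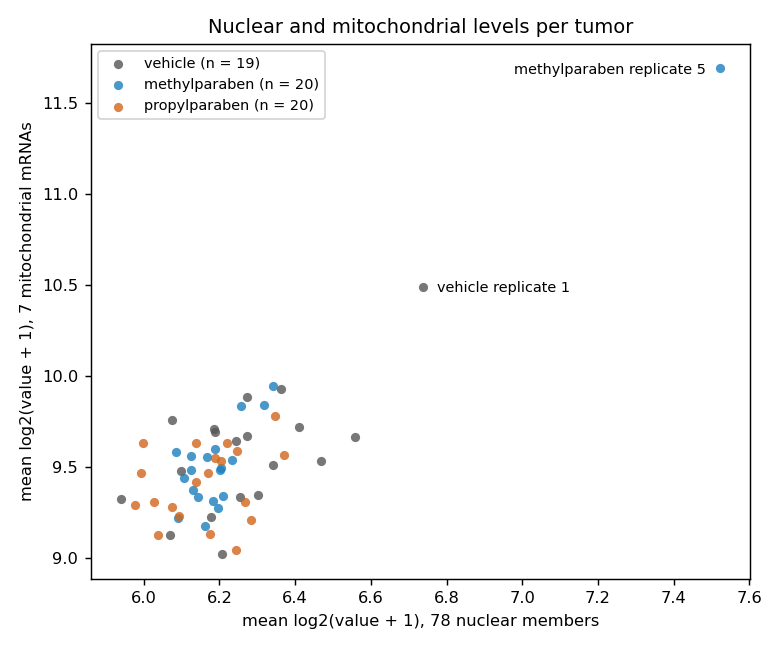
Mean log2(value + 1) of the 78 tested nuclear members (horizontal) and of the 7 measured mitochondrial mRNAs (vertical) in each of 59 tumors, colored by group. Methylparaben replicate 5 lies at 7.52 and 11.69 and vehicle replicate 1 at 6.74 and 10.49, and the other tumors lie below 10 on the vertical axis.

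To ask whether the 2 genomes move together, each gene was regressed on a level of the other genome across all tumors, with group as a covariate. The mitochondrial mRNA level was the mean log2(value + 1) of the 13 mitochondrial genes, including the 6 that were not measured and add almost nothing. Slopes are log2 changes per SD of that level over the tumors in each fit. Over the 7 measured mRNAs this SD was 0.385 with all tumors and 0.260 without methylparaben replicate 5. Slopes with and without that library are therefore in different units, and their sizes cannot be compared directly. A gene passed where its limma p, adjusted over all genes by Benjamini-Hochberg, was under 0.05. With all 59 tumors, 72 of 78 nuclear members rose with the mitochondrial mRNA level and 0 fell, while 8.70% of all genes passed, 5.32% rising and 3.38% falling. With the level taken over the 7 measured mRNAs alone, 72 rose as well (8.48% of all genes passed). The median slope was 0.19 for nuclear members and -0.005 for all genes. By complex, 34 of 35 members rose in complex I, 4 of 4 in complex II, 9 of 9 in complex III, 11 of 13 in complex IV and 14 of 17 in ATP synthase. Without methylparaben replicate 5, 39 of 78 rose and 0 fell, 38 of them among the 72, with a median slope of 0.07; of all genes 18.1% then passed, 8.92% rising and 9.19% falling. Leaving out vehicle replicate 1 as well gave 22, where 15.2% of all genes passed. With the tumor number described below as a covariate 72 passed (7.19% of all genes), and 50 did so without methylparaben replicate 5 (21.2%). The muscle and brown fat markers of methylparaben replicate 5 are given above.

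Counts by complex without that library were as follows. In complex I 12 of 35 members still rose, in complex II 1 of 4, in complex III 5 of 9, in complex IV 11 of 13 and in ATP synthase 10 of 17; whether complexes differed was not tested. Cyc1, cytochrome c1 of complex III (chromosome 15, 76343523 to 76346260), had a slope of 0.31 ± 0.03 (SE; limma adjusted p 4.03e-10) with all tumors and 0.13 ± 0.03 (0.00643) without it. Uqcrq of complex III had 0.28 ± 0.03 (7.36e-09) and 0.11 ± 0.03 (0.0214). Cox7b of complex IV, on the X chromosome (106015700 to 106022450), had 0.26 ± 0.03 (2.79e-10) and 0.21 ± 0.03 (2.12e-07). Ndufb6, a membrane arm subunit of complex I, had 0.26 ± 0.03 (8.11e-09) and 0.16 ± 0.03 (0.00028). The smallest slopes that passed were those of Atp5g3 at 0.09 ± 0.02 (0.0035), Sdhc and Ndufb2 at 0.11 ± 0.03, Ndufa13 at 0.11 ± 0.03 and Ndufa2 at 0.12 ± 0.03. The 6 members that did not pass were Ndufa11, Atp5g1, Cox7a2l, Cox6a2, Atp5l and Atp5g2.

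Sdhd had the largest slope of all tested nuclear members that passed. With all tumors it was 0.45 ± 0.11 (limma adjusted p 0.00567), and without methylparaben replicate 5 it was 0.62 ± 0.10 (2.28e-05). Slopes are not scaled to a gene's own spread, and Sdhd had the widest log2 spread of the members that passed (SD 0.98). Sdhd also fell with the tumor number described below, as most measured mitochondrial mRNAs did. Its partners in complex II behaved otherwise without that library: Sdha was at -0.05 ± 0.02 (0.0827), Sdhb at -0.02 ± 0.03 (0.638) and Sdhc at -0.05 ± 0.02 (0.121), and none of these 3 passed.

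**Figure D3:**
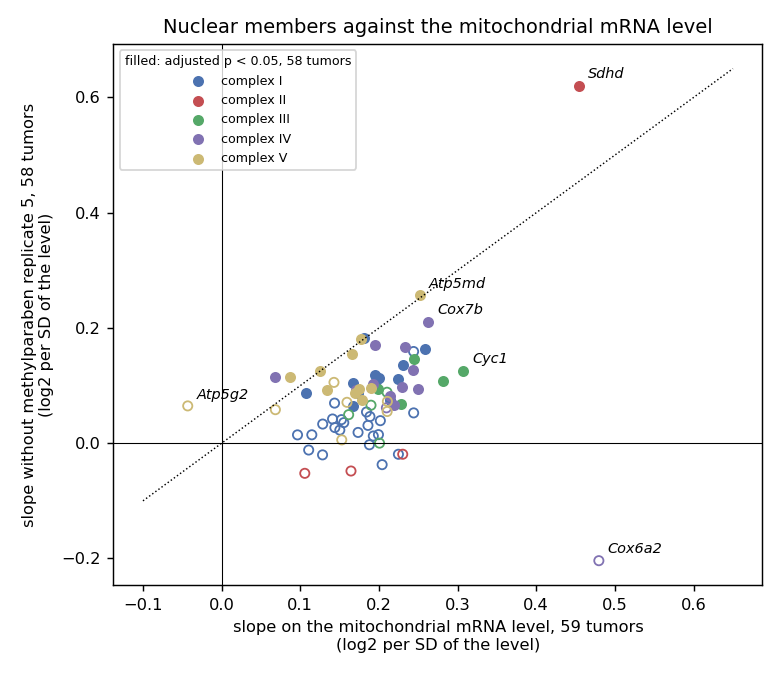
Slope of each of the 78 tested nuclear members on the mitochondrial mRNA level, with all 59 tumors (horizontal) and without methylparaben replicate 5 (vertical). Slopes are in log2 per SD of the level in each fit, so the axes differ in unit. Points are colored by complex, and filled points passed without that library. The dotted line marks equal printed values and not an equal change per unit of the level. Most points lie below the line and Sdhd lies above it at 0.62. Because the units differ, a place below the line does not by itself show a weaker association. Cox6a2 was at 0.48 with all tumors and at -0.20 without that library, and passed in neither fit.

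The same association was also read from the mitochondrial side, with the mean log2(value + 1) of the 78 nuclear members as the level. It rests on the same tumors and values and is not a second, independent result. The SD of the nuclear level was 0.220 with all tumors and 0.139 without methylparaben replicate 5, and slopes are per SD in each fit. All 7 measured mitochondrial mRNAs rose with the nuclear level, against 10.5% of all genes that passed, 6.36% rising and 4.13% falling. Slopes were 0.39 ± 0.03 for mt-Co1, 0.36 ± 0.03 for mt-Nd5, 0.34 ± 0.03 for mt-Cytb, 0.30 ± 0.03 for mt-Nd2, 0.27 ± 0.03 for mt-Nd4, 0.27 ± 0.03 for mt-Nd1 and 0.25 ± 0.04 for mt-Nd6, all with limma adjusted p of at most 4.01e-05. Without methylparaben replicate 5, 6 of 7 rose, with mt-Co1 largest at 0.20 ± 0.04 (adjusted p 1.57e-05); mt-Nd6 was at 0.09 ± 0.05 (0.152), and 29.6% of all genes then passed, 14.2% rising and 15.4% falling. Without vehicle replicate 1 as well, 4 of 7 rose, where 30.2% of all genes passed. The distance between the 2 levels, on the log2 scale and over the 7 measured mRNAs, was 3.31 ± 0.26 (SD) in vehicle, 3.36 ± 0.25 in methylparaben and 3.25 ± 0.21 in propylparaben tumors. These group means lay within 1 SD of each other.

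Each tumor carries a number in the labels, from 1 to 311, whose meaning is not stated. The groups were spread over it alike, vehicle tumors from 1 to 296 (median 132), methylparaben tumors from 2 to 279 (median 157) and propylparaben tumors from 17 to 311 (median 137). Slopes on this number, again with group as a covariate, were added after the values had been seen. Of 85 members 7 passed and all 7 fell, against 1.55% of all genes that passed, 0.794% rising and 0.759% falling. 6 of these were mitochondrial, of 7 tested, and the other was Sdhd. In the 30 tumors numbered up to 139, mt-Co1 was at 330, 441 and 2609 (lowest, median and highest; 982 at most without methylparaben replicate 5), and in the 29 above 139 it was at 288, 382 and 645. mt-Nd1 was at 1837, 2775 and 8319 (4965 at most without that library) against 1802, 2306 and 3507. Sdhd was at 3.17, 38.4 and 62.0 against 3.89, 24.2 and 44.5. The ranges overlapped in all 3 genes, with lower medians in the higher-numbered tumors.

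Per SD of the tumor number the slopes were -0.21 ± 0.05 for mt-Nd6 (limma adjusted p 0.00859), -0.20 ± 0.05 for mt-Co1 (0.0325), -0.18 ± 0.05 for mt-Nd5 (0.0494), -0.17 ± 0.04 for mt-Nd2 (0.0301), -0.16 ± 0.04 for mt-Nd4 (0.0373) and -0.16 ± 0.04 for mt-Nd1 (0.0322). mt-Cytb, at -0.16, had an adjusted p of 0.0744. Sdhd was at -0.42 ± 0.11 (0.0390). The other 77 nuclear members did not pass, and the median slope of the 78 was -0.014. The same 7 genes passed without methylparaben replicate 5, which is number 38. Vehicle replicate 1 is number 1, and without both libraries 6 members passed: mt-Co1, mt-Nd2, mt-Nd5 and mt-Nd6 fell, and Ndufa2 and Uqcrh rose, each by 0.09 (1.62% of all genes passed). With the tissue marker scores as covariates all 7 mitochondrial mRNAs passed and Sdhd did not (limma adjusted p 0.0618; 1.52% of all genes passed). What the number stands for, and whether storage, order of collection or anything else moved with it, was not tested.

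**Figure D4:**
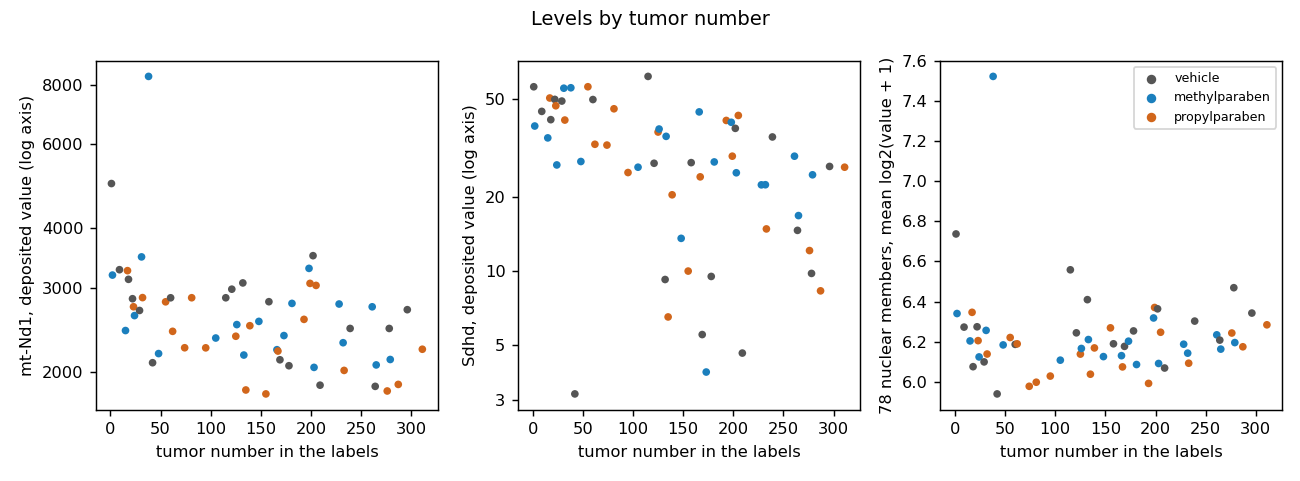
Values of mt-Nd1 and Sdhd (log axes) and the mean log2(value + 1) of the 78 nuclear members, each against the tumor number in the labels (1 to 311), 1 point per tumor, colored by group. The first 2 panels fall toward higher numbers, with the mt-Nd1 point at 8319 being methylparaben replicate 5 (number 38), and the nuclear mean shows no such fall.

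No member passed in any treatment comparison. In methylparaben against vehicle 0 of 85 passed in limma (1.32% of all genes did), and at an unadjusted p under 0.05 there were 3, all lower (of all genes 22.1% were under 0.05, 10.3% lower). In propylparaben against vehicle 0 passed (0.0276% of all genes), with 19 at an unadjusted p under 0.05, all lower (18.4% of all genes, 9.49% lower). In propylparaben against methylparaben 0 passed (0% of all genes), with 2 at an unadjusted p under 0.05, against 2.15% of all genes. edgeR on the recovered reads passed 1, 0 and 0 members in these comparisons (3.86%, 0.145% and 0.145% of all genes) and DESeq2 1, 1 and 0 (4.42%, 1.85% and 0%). Both comparisons with vehicle share the same 19 vehicle tumors.

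Most members had estimates below 0 in paraben tumors, though none passed. The median log2 difference of the 85 members was -0.13 in propylparaben against vehicle, with 9 of 85 above 0, and -0.04 in methylparaben against vehicle, with 32 of 85 above 0; without methylparaben replicate 5 the latter was -0.09, with 12 above 0. Medians over all genes lay between -0.007 and 0.005. The medians of nuclear and mitochondrial members were -0.13 and -0.17 in propylparaben against vehicle, and -0.04 and 0.02 in methylparaben against vehicle (-0.10 and -0.07 without methylparaben replicate 5); the difference between the genomes was not tested. By complex the propylparaben medians were -0.10 for complex I, -0.16 for complex III, -0.18 for complex IV, -0.13 for ATP synthase and 0.06 for complex II. The scores for mitosis, the mean log2(value + 1) of 20 cell division genes, were 5.37 ± 0.53 (SD) in vehicle, 4.89 ± 0.37 in methylparaben and 4.99 ± 0.48 in propylparaben tumors. Skeletal muscle markers summed to a median of 18.6 in vehicle, 304 in methylparaben and 203 in propylparaben tumors. With the mitosis score as a covariate, and with the tissue marker scores as covariates, 0 of 85 members passed in each of the 3 comparisons.

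Closest to passing in propylparaben against vehicle were 5 members, all lower. Atp5mpl, a small membrane subunit of ATP synthase (chromosome 12, 111961375 to 111966977), was at 99.9, 134 and 304 in vehicle and at 80.4, 116 and 139 in propylparaben tumors (lowest, median and highest). Its log2 difference was -0.32 ± 0.09 (SE; p 0.00102, limma adjusted p 0.0811), and DESeq2 gave an adjusted p of 0.0430. Without vehicle replicate 5 its limma adjusted p was 0.0350 and without propylparaben replicate 1 it was 0.0452. The call thus changed with the test and with single libraries. Ndufb4, an accessory subunit of complex I with 37% shared windows, was at 31.1, 42.5 and 65.7 against 27.5, 35.4 and 47.6. The difference was -0.30 ± 0.10 (adjusted p 0.101, or 0.0467 without vehicle replicate 5). Cox7a2l was at 105, 130 and 213 against 92.6, 122 and 147 (-0.20 ± 0.07, adjusted p 0.105). Cox7a2, the ubiquitous partner of the muscle form Cox7a1, was at 123, 184 and 316 against 118, 146 and 198 (-0.28 ± 0.09, 0.113). Atp5e, the epsilon subunit of ATP synthase, was at 52.2, 84.8 and 167 against 58.4, 73.0 and 86.5 (-0.26 ± 0.09, 0.113). In all 5 the groups overlapped, and the vehicle tumors reached higher. Vehicle replicate 1, which stood second in both genomes, was the highest vehicle tumor in Atp5mpl, Cox7a2l, Cox7a2 and Atp5e. The 5 smallest p values among higher estimates were those of Ndufs5 at 0.19, Sdha at 0.08, Sdhd at 0.23, Cox6a2 at 0.32 and Ndufs7 at 0.07, with adjusted p of at least 0.552.

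**Figure D5:**
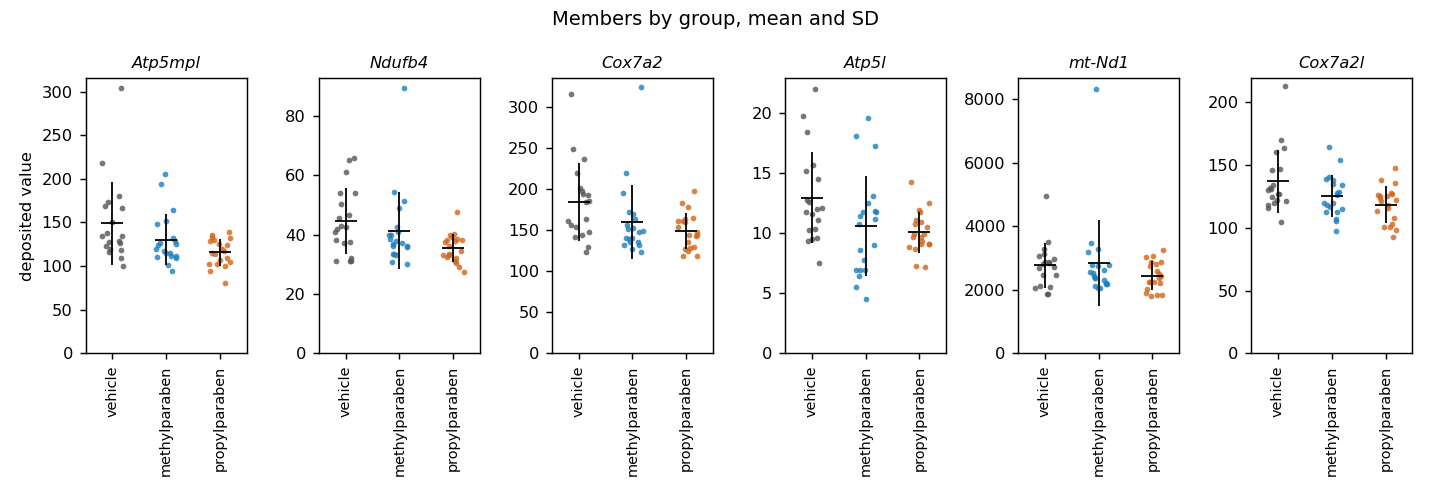
Deposited values of Atp5mpl, Ndufb4, Cox7a2, Atp5l, mt-Nd1 and Cox7a2l by group, 1 point per tumor, with the mean (horizontal bar) and SD (vertical bar); axes start at 0. The groups overlap in every panel, Atp5mpl reaches 304 in vehicle and 139 in propylparaben tumors, and the methylparaben point at 8319 in mt-Nd1 is replicate 5.

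In methylparaben against vehicle, the lowest p values belonged to Atp5l (7.47, 12 and 22.0 in vehicle against 4.53, 11 and 19.6), a membrane subunit of ATP synthase, at -0.31 ± 0.13 (p 0.0167, limma adjusted p 0.137), Cox7a2 at -0.20 ± 0.09, Atp5g2 at -0.27 ± 0.14, Atp5o at -0.15 ± 0.08 and Ndufs6 at -0.16 ± 0.08. None of these passed. Highest was Cox6a2, at 0, 0.752 and 8.83 in vehicle and 0, 1.67 and 133 in methylparaben tumors, a difference of 0.87 ± 0.44 (adjusted p 0.234). edgeR and DESeq2 passed this gene, with adjusted p of 0.0295 and 0.0326, and without methylparaben replicate 5, which holds the 133, the limma difference was 0.60 (0.389). The other higher estimates were Sdhc and Ndufb3 at 0.13, Sdha at 0.12 and Ndufb11 at 0.10. In propylparaben against methylparaben the lowest p values belonged to Ndufa9 at -0.20 ± 0.09 (p 0.0287) and Uqcrfs1, the Rieske iron-sulfur protein of complex III, at -0.18 ± 0.08 (p 0.0288), followed by Ndufb11 at -0.15, Ndufb4 at -0.18 and Ndufa6 at -0.13. Ndufs5 at 0.23, Atp5g2 at 0.16, Atp5g1 at 0.01 and Atp5l at 0.01 were the 4 members above 0 there.

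The 7 measured mitochondrial mRNAs did not pass in any of the 3 comparisons. mt-Nd1 was at 1869, 2810 and 4965 in vehicle, 2048, 2481 and 8319 in methylparaben and 1802, 2408 and 3263 in propylparaben tumors. The lowest adjusted p was that of mt-Co1 in propylparaben against vehicle, at -0.30 ± 0.14 (limma adjusted p 0.243). Across the 7 the log2 differences ran from -0.05 to 0.10 in methylparaben and from -0.30 to -0.07 in propylparaben tumors, both against vehicle. Introns of nuclear members gave 0 of 207 tests in the 3 comparisons, where 0 of 42843 tests over all introns passed. Intron values need not come from the named gene alone. The second row for Atp5o, at 0 in all 59 tumors by its gene value, had an intron mean of 747. Its annotated span overlaps Cryzl1 and Donson on the same strand.

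Cell division was set beside the chain because these tumors differ in it. With all tumors, 8 of 85 members passed against the mitosis score, 5 higher and 3 lower, where 39% of all genes passed (18.2% higher and 20.8% lower). The higher ones were 4 ATP synthase genes, Atp5g2 (0.17 ± 0.06), Atp5g3 (0.10 ± 0.02), Atp5g1 (0.10 ± 0.04) and Atp5f1 (0.07 ± 0.03), with Ndufc2 of complex I (0.12 ± 0.03). Atp5g1, Atp5g2 and Atp5g3 encode the same mature c ring protein. The lower ones were Cox6a2 (-0.48 ± 0.19), Ndufb10 (-0.10 ± 0.04) and Ndufa6 (-0.08 ± 0.03). Methylparaben replicate 5 had the lowest mitosis score of all, at 3.94. Without it 51 of 85 members passed and all 51 were higher (40% of all genes passed, 19% higher), 5 of which had passed before; they included 5 of 7 mitochondrial mRNAs, 15 of 35 members of complex I, 2 of 4 of complex II, 8 of 9 of complex III, 8 of 13 of complex IV and 13 of 17 of ATP synthase. The largest slopes were then those of Sdhd at 0.33, Cyc1 at 0.21 and Cox5a, Ndufb7 and Uqcrq at 0.16. With the tissue marker scores as covariates and without that library 17 passed, 16 higher and 1 lower, where 16% of all genes passed, and 2 of the 17 were among the first 8.

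With the mitosis score held as a covariate and without methylparaben replicate 5, 24 nuclear members passed against the mitochondrial mRNA level, 22 higher and 2, Sdha and Ndufv1, lower, where 11.9% of all genes passed. Of the 7 mitochondrial mRNAs 3 then passed against the nuclear level, where 13.7% of all genes did. Both counts are below those without the covariate, 39 and 6, and so are the shares of all genes.

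Oxygen is the last electron acceptor of the chain, so members were also set against a hypoxia score, the mean log2(value + 1) of 15 oxygen-responsive genes that hold no member. With all tumors 53 of 85 members passed, all higher, where 30.7% of all genes passed, 14.5% higher and 16.1% lower. They were 49 nuclear and 4 mitochondrial (mt-Co1, mt-Cytb, mt-Nd1 and mt-Nd5). All 9 members of complex III passed, 9 of 13 of complex IV, 20 of 35 of complex I, 10 of 17 of ATP synthase and 1 of 4 of complex II. The largest slopes were those of Atp5md (0.23 ± 0.06, limma adjusted p 0.00108), Cyc1 (0.23 ± 0.05, 9.9e-05), mt-Co1 (0.22 ± 0.06, 0.00211), Uqcrq (0.20 ± 0.04, 0.000495) and Cox5a (0.18 ± 0.04, 0.000184). Without methylparaben replicate 5, 43 passed, where 34.7% of all genes did, 16.6% higher and 18.1% lower. With the tissue scores as covariates (white fat, brown fat, skeletal muscle, fibroblast, macrophage, T cell and B cell markers) 5 did (Cox5a, Cox7c, Atp5b, Uqcrq and mt-Co1), where 8.19% of all genes passed, and 2 passed with the mitosis score as a covariate and without methylparaben replicate 5 (8.52% of all genes).

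Muscle carries its own isoforms, and 1 member followed its markers. Against the skeletal muscle score Cox6a2 rose by 1.36 ± 0.07 per SD (limma adjusted p 1.05e-25), and by 1.19 ± 0.06 (3.72e-25) without methylparaben replicate 5. It was the single member of 85 to pass, where 1.38% of all genes did (1.32% rising), and again the single one without that library (0.818% of all genes). Cox6a2 lies on chromosome 7 (128205435 to 128206387, minus strand), with Itgad on the other strand, and reads of the pair can only be told apart where strand is known. Its sister Cox6a1 and all other members of complex IV did not pass against this score.

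Introns of nuclear members were also set against the mitochondrial mRNA level, a test added after the values had been seen. Of 69 members with a tested intron value 5 passed and all 5 were higher, against 1.79% of all introns: Uqcrq at 0.32, Cox6b1 at 0.31, Ndufb6 at 0.26, Cox5b at 0.23 and Ndufa6 at 0.21. Without methylparaben replicate 5, 0 of 69 passed (1.82% of all introns).

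Genes around the chain were read from 5 lists, beside the 5.32% of all genes that rose with the mitochondrial mRNA level with all tumors and the 8.92% that rose without methylparaben replicate 5. Of 13 enzymes of the citric acid cycle, which supplies the chain with electrons, 12 rose with the mitochondrial mRNA level with all tumors and 3 without methylparaben replicate 5 (Idh3a, Idh3b and Fh1). Of 45 tested assembly factors 12 rose with all tumors, and 8 rose and 1 (Uqcc3) fell without it. Of 10 genes for membrane pores and protein import 4 rose with all tumors and 3 without it, of which Tomm20, an import receptor, had the largest slope at 0.22. Of 29 tested genes that replicate, transcribe and process mitochondrial DNA only Mterf3, Ssbp1 and Fastkd1 rose with all tumors. Without methylparaben replicate 5 there were 4: Ssbp1, the mitochondrial single-strand binding protein, at 0.28 (limma adjusted p 5.05e-06), Pnpt1, an exonuclease, at 0.27 (1.4e-05), Mterf3 at 0.22 (0.00314) and Slirp, which stabilizes mitochondrial mRNAs, at 0.15 (0.00311). The polymerase Polrmt and the packaging factor Tfam did not pass in either fit.

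Of 11 tested regulators of mitochondrial biogenesis, 4 rose with all tumors: Ppara at 0.47, Ppargc1a at 0.37, Ppargc1b at 0.30 and Esrra at 0.12. Ppargc1a, a coactivator of respiratory genes and also a marker on the brown fat list, was at 102 in methylparaben replicate 5 and at a median of 3.88 in the others, and Ppara at 103 against 1.88. Without that library none of these 4 passed, and Myc did, at 0.29 (limma adjusted p 0.00363). In the treatment comparisons 1 gene of these 5 lists passed, where 1.32% of all genes did in that comparison. Fastkd3, an RNA-binding protein of mitochondria, was lower in methylparaben than in vehicle tumors, by -0.36 on the log2 scale (limma adjusted p 0.0301).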

How the data were processed

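RNA from 59 primary mammary tumors (19 vehicle, 20 methylparaben, 20 propylparaben) was sequenced, and groups were taken from the treatment label. Replicate numbers only name tumors in accession order and pair nothing. The authors deposited a gene table of 55421 rows and an intron table of 33282 rows whose values are a normalized signal: per the labels' file names, normalized counts. The submitters' processing notes name bcl2fastq 2.20.0.422, STAR 2.6.1d, HTSeq 0.10.0 and GRCm38; what each did is not stated, and the annotation, strand setting, library kit and scaling tool were not given in those sources. In the gene table, 100% of values were whole multiples of the value of 1 read in their library (tolerance 1e-06 reads), so reads could be recovered; they numbered 1166502 to 2032789 per library on genes. The 5 HTSeq summary lines stayed out of all tests.

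Values were tested as log2(value + 1) with limma 3.58.1 (trend; R 4.3.3) in 1 fit of all tumors, for the 14487 genes with a mean of at least 1, with two-sided p-values adjusted by Benjamini-Hochberg over all of them (threshold 0.05); a difference on this scale understates the change of low genes. Slopes on library scores had group as a covariate and are per SD of the score over the tumors in each fit. edgeR 4.0.16 (quasi-likelihood) and DESeq2 1.42.0 on the recovered reads were alternatives, as were other pseudocounts, filters, scalings, covariates and leaving out each tumor. The fits were run on simulated counts, drawn separately for each gene, with a random score per tumor. These counts held no outlying library and, apart from planted changes, no variation shared between genes. They therefore do not test the results that moved with methylparaben replicate 5. The members and gene lists were chosen with earlier results of these data known. Named by rule were all mitochondrial members, the complex II subunits, 6 isoform pairs, members that passed, the 5 lowest p values in each direction where fewer than 3 passed, the 5 largest slopes in each direction, and the 3 members with the largest and the smallest SD among the 85 tested; the smallest passing slopes were named after their values were seen. Sequences and gene positions came from GENCODE M21 and RefSeq (GRCm38.p6), and 55154 gene rows had an M21 entry.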

Additional observations from a re-analysis of the deposited data

How the results depend on the processing

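Depth limits the low members: at 1166502 to 2032789 gene reads, values near 1 rest on a few reads. No paired analysis was possible because tumors carry no label that could pair them across groups. Libraries left out together, the mitosis and tumor number covariates and the slopes on tumor number and introns were added after the data had been seen. For the treatment comparisons, edgeR and DESeq2 each passed 1 member in methylparaben against vehicle, DESeq2 passed 1 in propylparaben against vehicle, and leaving out 1 tumor at a time gave 0 to 0, 0 to 2 and 0 to 0 in the 3 comparisons, with 1 without propylparaben replicate 1 and 2 without vehicle replicate 5. Nuclear members passing against the mitochondrial mRNA level numbered 39 without methylparaben replicate 5, 39 with tissue scores, 22 without methylparaben replicate 5 and vehicle replicate 1, 22 without methylparaben replicate 5 and with tissue scores, 24 without it and with the mitosis score, 72 with the tumor number, 50 without methylparaben replicate 5 and with the tumor number, and 39 to 74 when 1 tumor was left out. Mitochondrial members passing against the nuclear level numbered 4 without both libraries, 3 without methylparaben replicate 5 and with the mitosis score, and 6 to 7 with 1 tumor left out. Against the mitosis score 4 members passed without the filter, 15 with tissue scores, 14 without the group term, 51 without methylparaben replicate 5, 48 without both libraries, 17 without methylparaben replicate 5 and with tissue scores, 53 without it and with the tumor number, and 5 to 51 with 1 tumor left out (5 without vehicle replicate 8 and 5 without propylparaben replicate 1). Against hypoxia 5 passed with tissue scores, 1 without methylparaben replicate 5 and with tissue scores, 2 without it and with the mitosis score, and 43 to 60 with 1 tumor left out. Against muscle 4 passed with a pseudocount of 10 (Ndufs1, Sdhb and Uqcrc1 added), 0 at a mean of at least 10, where Cox6a2 was not tested, 5 with edgeR (Ndufa10, Sdhb, Uqcrc1 and mt-Nd5 added), and 1 to 1 with 1 tumor left out. Intron counts were 0 to 0 in the comparisons with 1 tumor left out, and 0 against the mitochondrial level without methylparaben replicate 5 and without both libraries. Leaving out each tumor was not run for the slopes on the tumor number or for intron slopes. Where counts moved, the cause was not tested.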

Other observations

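None of the 6 genes whose log2 values over the 59 tumors were most like those of Sdhd, looked up after its values were seen, is a subunit of the respiratory chain. Their Pearson correlations with Sdhd are given as a description, as all genes of a tumor share its library and depth. They were 0.93 for Adam9, a membrane metalloprotease, 0.92 for Ost4, a subunit of the oligosaccharyltransferase, and 0.91 for Mrps28, a protein of the mitochondrial ribosome. For Gramd4 the correlation was 0.90, for Tmem128 0.88 and for Snhg6, a noncoding RNA, 0.87. Mrps28 ran from 1.58 to 57.5 and Adam9 from 8.63 to 69.6 over the tumors, so these genes shared the wide range of Sdhd, which ran from 3.17 to 62.0. The Sdhd introns had a mean of 1.88, with values from 0 to 8.07, too few reads to follow it.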
